A study of Homo sapiens with 9 samples.

Results

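Integrins are receptors that hold cells to the matrix around them and to other cells, and laminins are the large proteins of the basement membrane to which several of them bind. The genes of both families were followed in 3 human breast cancer cell lines, and they were chosen by name, as every probe set that the array's annotation gives to an integrin subunit or to a laminin chain on a list of 36 genes. Of these, 34 genes had a probe set of their own, with 92 probe sets among the 54675 on the array. Testing required a log2 level of 6 or more on 3 or more of the 9 arrays. This kept 29 probe sets of 18 members, 12 integrin subunits and 6 laminin chains, among 21095 tested probe sets of 10751 named genes. LAMA3 and ITGB6 are on the list and were not analysed here. This list, and the lists of other genes used below, were chosen with earlier results of these data known. A count above the share of all genes is therefore no independent support.

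Total RNA of each line was hybridised to Affymetrix U133 Plus 2.0 arrays. MDA-MB-231/GFP/Neo cells are ER negative, resistant to G418 and a single clone, and they have a mesenchymal shape. ZR-75-1/GFP/puro cells are ER positive, luminal and resistant to puromycin, and they were used as a pool of transfectants. B6TC is an estrogen-independent GFP+ line that was established from a tumor in a nude mouse, after cells recovered from bone marrow had been inoculated there, and its label calls it a fusion of the other lines. All lines carried GFP, were kept in the same medium with serum and received no treatment before the RNA was taken. Each line had 3 arrays, which the labels call technical replicates, so that the p-values measure the spread between arrays of one line and not between cultures. In RNA from whole cultures, fewer cells of a kind and less RNA per cell cannot be told apart.

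The labels were set against marker genes. VIM, the intermediate filament of mesenchymal cells, lay at 13.61 to 13.64 for B6TC, 13.68 to 13.69 for MDA-MB-231 and 5.92 to 6.12 for ZR-75-1. The best expressed ESR1 probe set of ZR-75-1 (205225_at), for the estrogen receptor, lay at 10.09 to 10.25 there, at 3.27 to 3.35 in MDA-MB-231 and at 3.50 to 4.26 in B6TC. Of 6 leukocyte markers only HCLS1 reached a mean of 6 in B6TC, and PTPRC, which defines leukocytes, was near 3 on every array. None of 4 megakaryocyte markers reached 6 in any line, and of 4 endothelial markers only PECAM1 did, in B6TC and MDA-MB-231. The third B6TC array stood apart. It was the highest of the 3 B6TC arrays at 205 of 226 probe sets that are high only in ZR-75-1, and CDH1 lay at 3.38, 3.26 and 6.89 on the B6TC arrays. At the 29 integrin and laminin probe sets it was above the mean of its line at 15, with a median deviation of 0.00574. Without it, the counts of members called against ZR-75-1 were 13 higher and 5 lower as with it, and those against MDA-MB-231 were 2 higher and 6 lower in place of 7 lower. Signs of RNA quality and labeling also differed between the lines. The 3′ probe set of ACTB exceeded the 5′ probe set by 0.67 on the B6TC arrays, by 0.28 to 0.34 in MDA-MB-231 and by 0.69 to 0.77 in ZR-75-1, and the poly-A transcripts added before labeling lay at means of 9.08, 5.68 and 7.54. The part of these in the differences reported here was not tested.

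Each integrin is a pair of an alpha and a beta subunit, and the alpha subunit largely sets the ligand, which is collagen, laminin or proteins with an RGD motif. Each laminin is a trimer of an alpha, a beta and a gamma chain. In breast epithelium the hemidesmosome, built on the ITGA6 and ITGB4 pair, anchors cells to laminin, while ITGB1 pairs serve focal adhesions, which link the matrix to actin.

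The sequences before the start sites of 5 tested members are shown because these genes carry the contrasts described here. ITGA2 and ITGA10 were the members above both other lines in B6TC, ITGA6 and LAMB3 were far below the other lines in ZR-75-1, and LAMA5 was a laminin chain with its highest level in ZR-75-1. Each window holds the 250 bases upstream of a RefSeq start site on GRCh38.p14, and 15 of the 18 tested members had one, of which the first listed was used where several were. Capitals mark matches on either strand to 3 motifs: AP-1, spelled TGANTCA; the E-box that ZEB and Snail repressors can bind, spelled CACCTG and, where it lies on the opposite strand, CAGGTG; and the SP1 box, spelled GGGCGG and, where it lies on the opposite strand, CCGCCC. Matches that overlap were each counted. The windows are at chr5:52989102-52989351 (plus strand), chr1:145910051-145910300 (minus strand), chr2:172427086-172427335 (plus strand), chr1:209652426-209652675 (minus strand) and chr20:62367313-62367562 (minus strand).
ITGA2: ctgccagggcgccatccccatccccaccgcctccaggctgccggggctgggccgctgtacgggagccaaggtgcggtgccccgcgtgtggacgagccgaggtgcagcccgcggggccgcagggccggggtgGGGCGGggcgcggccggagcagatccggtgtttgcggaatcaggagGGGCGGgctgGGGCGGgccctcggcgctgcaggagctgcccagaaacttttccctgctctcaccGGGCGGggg
ITGA10: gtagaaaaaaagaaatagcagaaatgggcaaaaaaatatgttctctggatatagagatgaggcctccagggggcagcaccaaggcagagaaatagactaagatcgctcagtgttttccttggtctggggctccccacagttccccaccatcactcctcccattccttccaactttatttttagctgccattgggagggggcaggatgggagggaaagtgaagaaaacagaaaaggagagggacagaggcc
ITGA6: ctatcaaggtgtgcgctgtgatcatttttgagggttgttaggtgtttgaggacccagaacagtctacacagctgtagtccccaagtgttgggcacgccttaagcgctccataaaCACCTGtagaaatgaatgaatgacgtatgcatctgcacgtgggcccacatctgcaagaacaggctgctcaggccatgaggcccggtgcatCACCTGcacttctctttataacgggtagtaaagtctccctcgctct
LAMB3: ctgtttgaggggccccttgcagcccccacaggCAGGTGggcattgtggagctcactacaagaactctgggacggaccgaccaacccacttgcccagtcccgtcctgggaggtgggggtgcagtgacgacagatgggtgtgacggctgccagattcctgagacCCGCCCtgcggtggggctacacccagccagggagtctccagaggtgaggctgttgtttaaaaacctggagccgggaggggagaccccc
LAMA5: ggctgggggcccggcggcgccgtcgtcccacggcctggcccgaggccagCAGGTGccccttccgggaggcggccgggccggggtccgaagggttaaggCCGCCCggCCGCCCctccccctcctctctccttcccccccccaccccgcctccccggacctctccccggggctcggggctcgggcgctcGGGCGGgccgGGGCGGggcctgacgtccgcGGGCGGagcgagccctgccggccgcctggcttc
Among the 15 windows, 3 held the E-box, those of ITGA6, LAMB3 and LAMA5, against 17.5% of all 35116 windows of this length. ITGA6 had 2 such matches, which started 136 and 46 bases before the start site. The SP1 box was in 9 of the 15 windows and in 42.6% of all windows, with 4 matches in ITGA2, 5 in LAMA5 and none in ITGA10. AP-1 letters were in none of the 15 windows and in 6.57% of all windows. ITGA10, with a G and C content of 48.4%, stood against 76.4% for ITGA2 and a median of 58.0% over all windows. A match describes the letters and is not evidence that a factor binds there.

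Most of the integrin and laminin genes that passed the filter lay above ZR-75-1 in both B6TC and MDA-MB-231. Of the 18 tested members, each read by its probe set of highest mean, 13 were higher and 5 lower when B6TC was set against ZR-75-1, at a limma adjusted p of 0.05 or less, against 42.8% and 41.6% of all tested genes. Of these, 12 were at least 2-fold higher and 2 at least 2-fold lower, where the shares of all genes were 17.6% and 14.0%. The median log2 difference of the members was 1.32, and that of all genes was -0.00498. A gene can pass the filter through the line where it is high. Without the filter, 15 of the 34 genes with a probe set were higher and 8 lower in B6TC than in ZR-75-1. The shares of all genes were not counted without the filter, so this count does not show that members were higher more often. The table holds no detection calls, and a level well under 6 may be background, so that a difference from such a level has no exact size. MDA-MB-231 gave the same kind of count against ZR-75-1, with 14 members higher and 4 lower against 42.5% and 41.9% of all genes. At least 2-fold higher were 12 members and at least 2-fold lower 1, where the shares of all genes were 16.3% and 15.6%. Both comparisons use the same ZR-75-1 arrays, and so they are not independent.

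B6TC and MDA-MB-231 differed much less. Of the 18 members, 2 were higher in B6TC and 7 were lower at a limma adjusted p of 0.05 or less, and 9 did not pass. Among all tested genes 36.5% were higher and 28.5% lower, and the count of lower members, near that share, is not a result about these families. On the probe set of highest mean, ITGA10 alone was changed at least 2-fold, upward, where 2.71% of all genes were at least 2-fold higher and 1.04% at least 2-fold lower. The median difference of the members was -0.13, and that of all genes was 0.04. The arrays of the lines did not overlap for 14 of the 18 members in this comparison, against 70.0% of all genes. In the comparisons of B6TC and of MDA-MB-231 with ZR-75-1 they overlapped for none of the 18, and were apart for 87.0% and 85.2% of all genes.

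**Figure D1:**
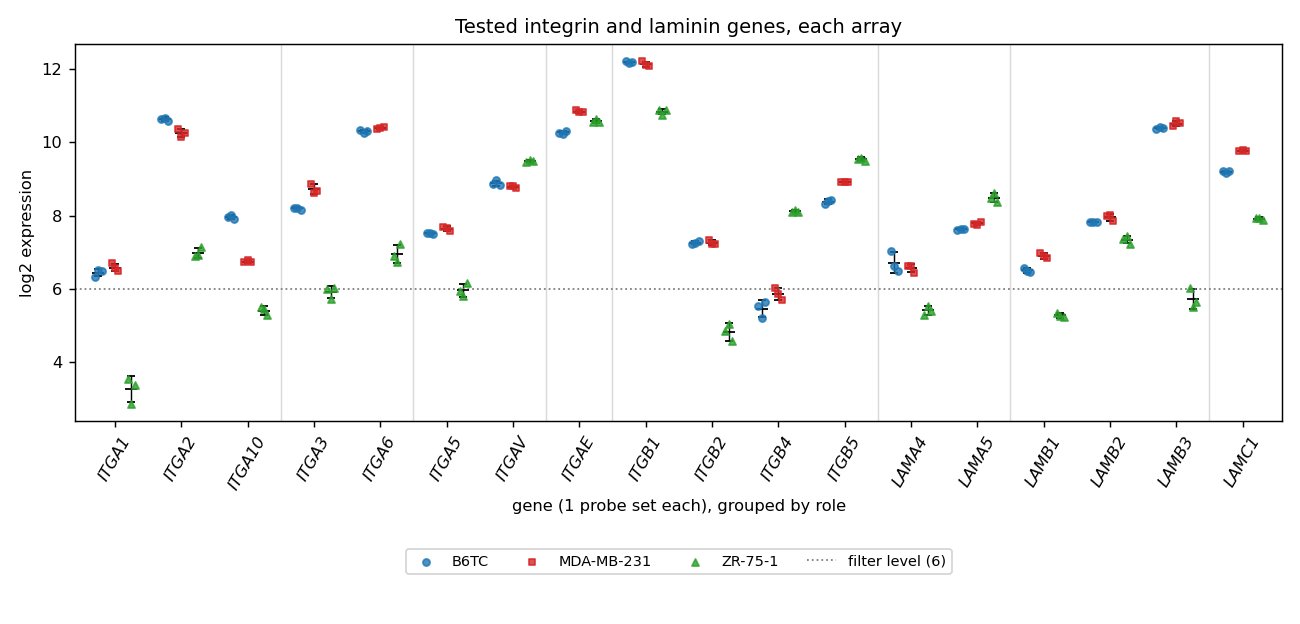
Log2 expression of the 18 tested integrin and laminin genes on each array (y axis), 1 probe set per gene, grouped by role along the x axis. Points are single arrays of B6TC (circles), MDA-MB-231 (squares) and ZR-75-1 (triangles), bars give the mean and SD of 3 arrays, and the dotted line is the filter level of 6. B6TC and MDA-MB-231 lie close together at most genes, and ZR-75-1 lies below them at ITGA1, ITGA2, ITGA6, ITGB2 and LAMB3 and above them at ITGB4.

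The collagen receptor alpha subunits that passed the filter, ITGA1, ITGA2 and ITGA10, were higher in B6TC and in MDA-MB-231 than in ZR-75-1, and B6TC was called above MDA-MB-231 at ITGA2 and ITGA10. ITGA10, a collagen receptor subunit known from cartilage, had log2 levels of 7.98, 8.01 and 7.92 for B6TC, 6.73, 6.79 and 6.73 for MDA-MB-231 and 5.51, 5.45 and 5.29 for ZR-75-1. The lines did not overlap, and ITGA10 fell in the order B6TC, MDA-MB-231, ZR-75-1. B6TC exceeded MDA-MB-231 2.33-fold (log2 difference 1.22, standard error 0.0597, limma adjusted p = 1.9e-07) and ZR-75-1 5.88-fold (log2 difference 2.56, limma adjusted p = 5.9e-11). The gene lies on chromosome 1 at 145891208 to 145910050.

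ITGA2, the collagen receptor subunit that platelets and many epithelia also use, lay at 10.64, 10.68 and 10.58 for B6TC, 10.37, 10.16 and 10.25 for MDA-MB-231 and 6.90, 6.93 and 7.14 for ZR-75-1. All B6TC arrays were above all MDA-MB-231 arrays, and ZR-75-1 was far below both. The difference was 0.37 between B6TC and MDA-MB-231 (standard error 0.0754, limma adjusted p = 0.00152) and 3.64, or 12.5-fold, between B6TC and ZR-75-1 (limma adjusted p = 2.7e-11). The second ITGA2 probe set, 205032_at, did not pass between B6TC and MDA-MB-231, at -0.04 (limma adjusted p = 0.511), and placed B6TC above ZR-75-1 by 2.18. The call of ITGA2 against MDA-MB-231 therefore rested on 1 of its 2 probe sets.

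ITGA1, the third collagen receptor subunit, ends 30143 bases before the start of ITGA2 on chromosome 5. Its levels were 6.33, 6.51 and 6.48 for B6TC, 6.70, 6.57 and 6.50 for MDA-MB-231 and 3.55, 2.87 and 3.38 for ZR-75-1. The first pair of lines overlapped, with a difference of -0.15 (standard error 0.145, limma adjusted p = 0.400), and both were clear of ZR-75-1. B6TC exceeded ZR-75-1 by 3.17 (limma adjusted p = 7.9e-09) and MDA-MB-231 exceeded it by 3.32 (limma adjusted p = 5.5e-09), with ZR-75-1 in the range of members that reached 6 on no array, so that these differences are lower bounds. The neighbouring genes thus lay on the same side of ZR-75-1. The other ITGA1 probe sets, 214660_at and 1560359_at, stayed below 6 on every array and were not tested. On 214660_at B6TC lay at 5.42, 5.89 and 5.55, above MDA-MB-231 at 5.03, 4.91 and 5.08. On 1560359_at, at 2.47 to 3.07, these lines overlapped.

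Among the laminin receptors, ITGA3 and ITGA6 were higher in B6TC and MDA-MB-231 than in ZR-75-1 as well. ITGA3, which binds laminins in focal contacts and beneath epithelia, lay at 8.22, 8.22 and 8.17 for B6TC, 8.88, 8.61 and 8.68 for MDA-MB-231 and 6.01, 5.73 and 6.03 for ZR-75-1. B6TC lay between the other lines without overlap, at -0.52 from MDA-MB-231 (standard error 0.0899, limma adjusted p = 5.9e-04) and 2.28 from ZR-75-1 (limma adjusted p = 2.5e-09). ITGA6 is the laminin receptor subunit that pairs with ITGB4 in hemidesmosomes and with ITGB1 elsewhere. Its probe set of highest mean (201656_at) gave 10.33, 10.26 and 10.31 for B6TC, 10.37, 10.40 and 10.42 for MDA-MB-231 and 6.89, 6.74 and 7.22 for ZR-75-1. The difference from ZR-75-1 was 3.36 in B6TC, or 10.2-fold (limma adjusted p = 3.2e-10), and that from MDA-MB-231 was -0.09 (limma adjusted p = 0.444).

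The second ITGA6 probe set read otherwise. On 215177_s_at the levels were 9.02, 9.02 and 9.07 for B6TC, 10.42, 10.35 and 10.28 for MDA-MB-231 and 5.94, 5.74 and 5.79 for ZR-75-1. Here B6TC was below MDA-MB-231 by a difference of -1.32 (standard error 0.0596, limma adjusted p = 1.2e-07), the lowest value of any tested member probe set in this comparison, while it stayed 3.21 above ZR-75-1 (limma adjusted p = 1.3e-11). The probe sets of ITGA6 were therefore alike against ZR-75-1 and unlike against MDA-MB-231.

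The RGD receptors went in opposite directions against ZR-75-1. ITGA5, which with ITGB1 forms the classical fibronectin receptor, lay at 7.53, 7.53 and 7.50 for B6TC, 7.70, 7.67 and 7.58 for MDA-MB-231 and 5.94, 5.82 and 6.17 for ZR-75-1. In B6TC it exceeded ZR-75-1 by 1.55, or 2.92-fold (limma adjusted p = 2.0e-08), and its difference from MDA-MB-231 was -0.13 (limma adjusted p = 0.182). ITGAV, which binds vitronectin and helps to activate latent TGF-beta, lay at 8.87, 8.97 and 8.83 for B6TC, 8.82, 8.80 and 8.75 for MDA-MB-231 and 9.48, 9.51 and 9.49 for ZR-75-1. It was thus highest in ZR-75-1, with a difference of -0.60 for B6TC (standard error 0.0470, limma adjusted p = 5.9e-07) and -0.70 for MDA-MB-231 (limma adjusted p = 1.6e-07), and 0.10 between B6TC and MDA-MB-231 (limma adjusted p = 0.0824).

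ITGAE, the subunit by which intraepithelial lymphocytes bind E-cadherin, was measured in all 3 lines although its beta partner ITGB7 stayed below 6 on every array. Its levels were 10.26, 10.24 and 10.32 for B6TC, 10.88, 10.83 and 10.83 for MDA-MB-231 and 10.56, 10.64 and 10.56 for ZR-75-1. B6TC was the lowest line without overlap, at -0.57 from MDA-MB-231 (standard error 0.0447, limma adjusted p = 2.9e-06) and -0.31 from ZR-75-1 (limma adjusted p = 7.3e-05). ITGAE was the tested alpha subunit whose 3 lines lay closest together.

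Of the beta subunits, ITGB1 and ITGB2 were higher in B6TC and MDA-MB-231, whereas ITGB4 and ITGB5 were higher in ZR-75-1. ITGB4, the hemidesmosome subunit with a long cytoplasmic tail, lay at 5.53, 5.22 and 5.66 for B6TC, 6.03, 5.87 and 5.69 for MDA-MB-231 and 8.10, 8.15 and 8.10 for ZR-75-1. All B6TC arrays were below the lowest MDA-MB-231 array, and ZR-75-1 was clear of both. ITGB4 passed the filter through ZR-75-1, and its means of 5.47 in B6TC and 5.86 in MDA-MB-231 were below 6. The difference between those lines may therefore lie in the background and has no exact size. B6TC differed from ZR-75-1 by -2.65, which is 6.28-fold (standard error 0.113, limma adjusted p = 4.6e-09), and from MDA-MB-231 by -0.40 (limma adjusted p = 0.0110). The second tested probe set, 204989_s_at, was on the same side in both comparisons, with differences of -2.47 and -0.46. Its means in B6TC and MDA-MB-231, 4.47 and 4.93, were also below 6.

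ITGB5, a partner of ITGAV, lay at 8.32, 8.41 and 8.44 for B6TC, 8.93, 8.92 and 8.92 for MDA-MB-231 and 9.56, 9.59 and 9.49 for ZR-75-1. The order was ZR-75-1, MDA-MB-231, B6TC, with differences of -1.16 (limma adjusted p = 3.3e-09) and -0.54 (limma adjusted p = 6.0e-06) for B6TC from the other lines in that order. Its second probe set, 214020_x_at, placed B6TC above MDA-MB-231 by 0.15 (limma adjusted p = 0.0420) and below ZR-75-1 at -0.77. The direction of ITGB5 between B6TC and MDA-MB-231 therefore depended on the probe set.

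ITGB1, the common partner of most alpha subunits, gave 12.21, 12.18 and 12.19 for B6TC, 12.22, 12.11 and 12.08 for MDA-MB-231 and 10.89, 10.76 and 10.89 for ZR-75-1 on its probe set of highest mean. B6TC exceeded ZR-75-1 by 1.35, or 2.55-fold (limma adjusted p = 2.8e-09), and its difference from MDA-MB-231 was 0.06 (limma adjusted p = 0.370). The other tested ITGB1 probe sets, 1553530_a_at and 1553678_a_at, both put B6TC under MDA-MB-231, at -0.59 (limma adjusted p = 6.2e-06) and -0.64 (limma adjusted p = 4.3e-06), and both put it above ZR-75-1 by 1.43. ITGB2, the beta subunit of leukocyte integrins, gave 7.23, 7.27 and 7.31 for B6TC, 7.34, 7.24 and 7.23 for MDA-MB-231 and 4.85, 5.06 and 4.57 for ZR-75-1. The first pair of lines overlapped fully (log2 difference 8.3e-05, standard error 0.103, limma adjusted p = 0.999), and B6TC exceeded ZR-75-1 by 2.45, or 5.45-fold (limma adjusted p = 4.3e-09). The second tested probe set, 202803_s_at, gave 0.14 (limma adjusted p = 0.521) and 3.56 (limma adjusted p = 1.5e-08), with ZR-75-1 at 3.60 to 4.43. ZR-75-1 was below 6 on both probe sets, so that the differences of ITGB2 from that line have no exact size. The alpha partners of ITGB2, namely ITGAL, ITGAM, ITGAX and ITGAD, all on chromosome 16, reached 6 on no array.

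**Figure D2:**
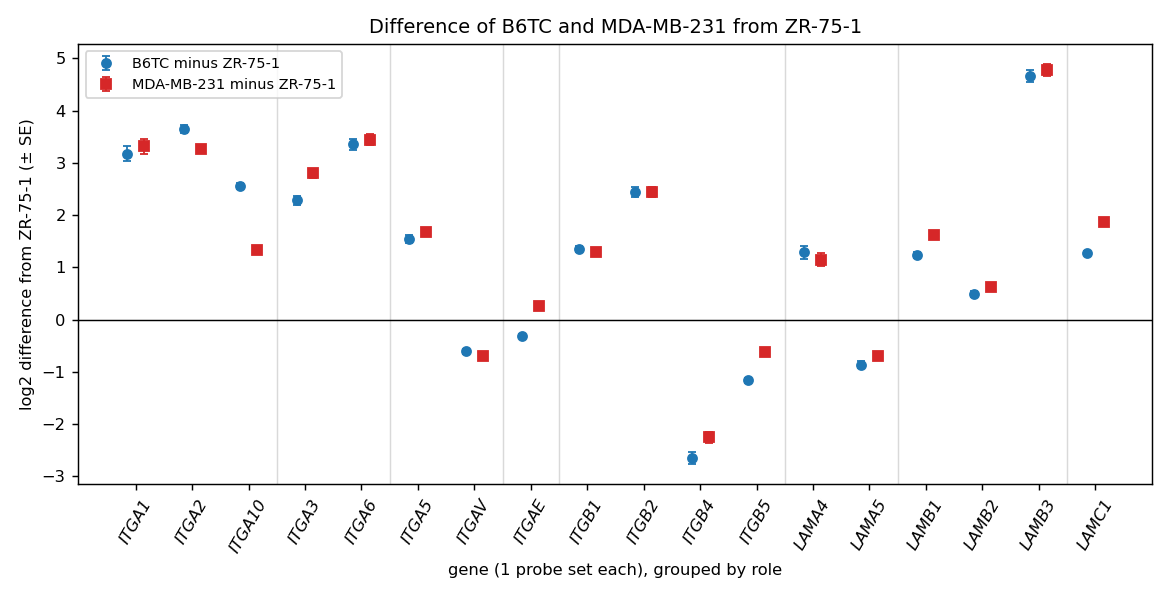
Log2 difference of B6TC (circles) and of MDA-MB-231 (squares) from ZR-75-1 (y axis) for the 18 tested integrin and laminin genes, grouped by role along the x axis. Bars are limma standard errors, and both series use the same 3 ZR-75-1 arrays. Both lie above 0 at 13 genes and below 0 at 4, and at ITGAE MDA-MB-231 lies at 0.26 and B6TC at -0.31.

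The laminin beta chains LAMB1, LAMB2 and LAMB3 and the gamma chain LAMC1 were higher in B6TC and MDA-MB-231 than in ZR-75-1, while the gamma chain LAMC3 stayed below the filter. LAMB3, a chain of the laminin of the skin and breast basement membrane to which hemidesmosomes attach, had the largest measured difference from ZR-75-1 among the tested members in both lines. Its ZR-75-1 mean of 5.73 was below 6, and the differences of ITGA1 are lower bounds, so that neither this rank nor the size is exact. It lay at 10.38, 10.42 and 10.40 for B6TC, 10.45, 10.58 and 10.52 for MDA-MB-231 and 6.04, 5.51 and 5.65 for ZR-75-1. The difference of B6TC from ZR-75-1 was 4.67, or 25.4-fold (standard error 0.111, limma adjusted p = 6.9e-11), and that from MDA-MB-231 was -0.12 (limma adjusted p = 0.374). LAMB2, a chain of laminins of muscle, kidney and nerve, lay at 7.83, 7.84 and 7.84 for B6TC, 8.0, 8.03 and 7.85 for MDA-MB-231 and 7.36, 7.44 and 7.24 for ZR-75-1. It exceeded ZR-75-1 in B6TC by 0.49 (limma adjusted p = 3.5e-05), and its difference from MDA-MB-231 was -0.12 (limma adjusted p = 0.116).

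LAMB1, the beta chain of many embryonic and vascular laminins, was read in opposite directions by its probe sets. The one of highest mean, 211651_s_at, gave 6.58, 6.50 and 6.46 for B6TC, 6.99, 6.89 and 6.84 for MDA-MB-231 and 5.34, 5.27 and 5.23 for ZR-75-1. On 201505_at the levels were 7.01, 7.25 and 7.16 for B6TC, 6.23, 5.99 and 5.99 for MDA-MB-231 and 4.59, 4.84 and 4.94 for ZR-75-1. Both placed B6TC above ZR-75-1, by 1.23 (limma adjusted p = 7.9e-09) and 2.35 (limma adjusted p = 5.7e-09). Against MDA-MB-231 the first gave -0.39 (limma adjusted p = 1.6e-04) and the second 1.07 (limma adjusted p = 1.1e-05), each without overlap of the arrays. No direction between these lines can be given for LAMB1.

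LAMC1, the gamma chain shared by most laminins, lay at 9.22, 9.16 and 9.22 for B6TC, 9.76, 9.80 and 9.78 for MDA-MB-231 and 7.95, 7.93 and 7.88 for ZR-75-1. B6TC was between the other lines, at -0.58 from MDA-MB-231 (standard error 0.0420, limma adjusted p = 1.8e-06) and 1.28 from ZR-75-1 (limma adjusted p = 6.6e-10). Its second probe set, 200770_s_at, was on the same sides, at -0.35 and 0.26.

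The tested laminin alpha chains, LAMA4 and LAMA5, went apart. LAMA4, a chain of vessel and mesenchymal basement membranes, gave 7.03, 6.62 and 6.49 for B6TC, 6.64, 6.62 and 6.45 for MDA-MB-231 and 5.30, 5.55 and 5.41 for ZR-75-1 on its probe set of highest mean. B6TC exceeded ZR-75-1 by 1.29 (limma adjusted p = 3.7e-06), and its difference from MDA-MB-231 was 0.14 (limma adjusted p = 0.346). On 202202_s_at, with 7.42, 7.60 and 7.45 for B6TC, 6.86, 6.82 and 6.82 for MDA-MB-231 and 3.72, 3.94 and 3.77 for ZR-75-1, B6TC was above MDA-MB-231 by 0.66 (limma adjusted p = 1.7e-05) and above ZR-75-1 by 3.68. The third tested probe set, 210990_s_at, gave -0.12 (limma adjusted p = 0.413) and 1.00. LAMA5, the alpha chain of most adult epithelial basement membranes, was the laminin chain that was highest in ZR-75-1, at 8.48, 8.62 and 8.38, against 7.61, 7.64 and 7.65 in B6TC and 7.77, 7.76 and 7.84 in MDA-MB-231. Its difference for B6TC was -0.86 from ZR-75-1 (limma adjusted p = 2.8e-07) and -0.16 from MDA-MB-231 (standard error 0.0614, limma adjusted p = 0.0450). The call against MDA-MB-231 was lost without any one array of either line, with an adjusted p of 0.0612 to 0.133 by limma, and without the first ZR-75-1 array, at 0.0515.

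**Figure D3:**
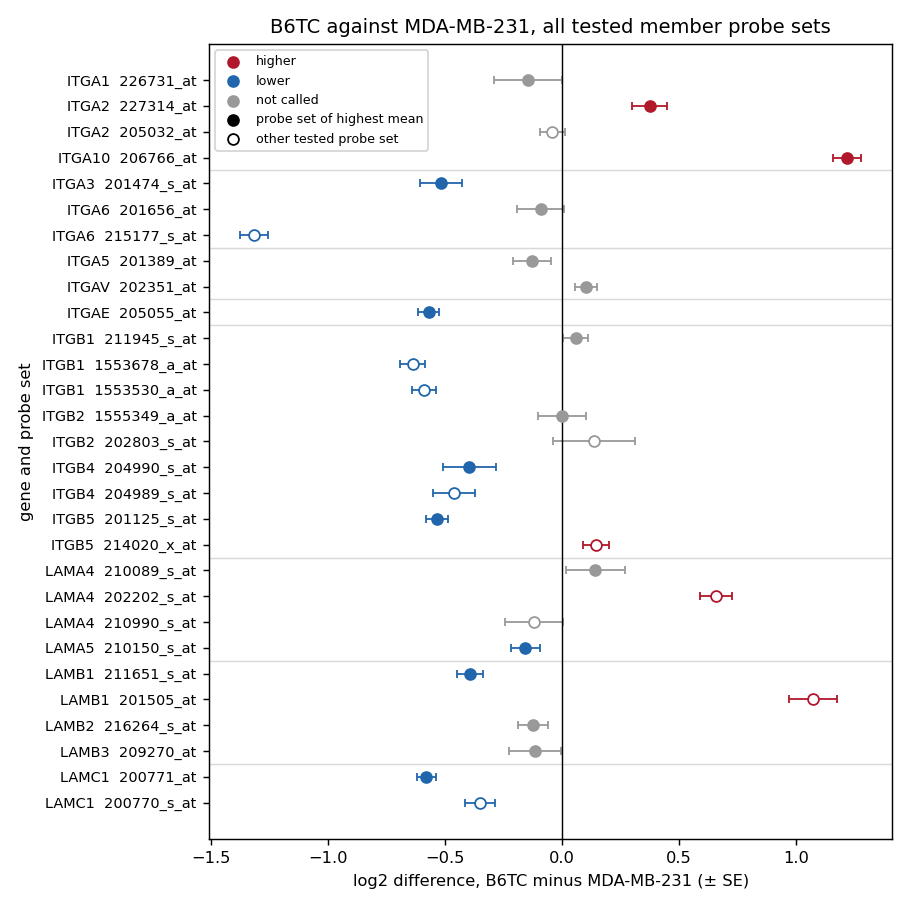
Log2 difference of B6TC from MDA-MB-231 (x axis) for all 29 tested probe sets of integrin and laminin genes (y axis), with limma standard errors. Filled points are the probe set of highest mean of each gene, open points its other tested probe sets, and colors give the call at an adjusted p of 0.05. The probe sets of ITGB5 and of LAMB1 lie on opposite sides of 0, and those of ITGA6 lie at -0.09 and -1.32.

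The probe sets of a gene were compared over all members with more than 1 tested. Between B6TC and MDA-MB-231, 2 of 9 such members, ITGB5 and LAMB1, were called in both directions, or 22.2%, where 956 of 4955 genes on the array were, or 19.3%. Against ZR-75-1 none of the 9 was, in B6TC or in MDA-MB-231, where 8.54% and 10.8% of those genes were. The directions against ZR-75-1 were thus the same on every tested probe set of these 9 members, and those between B6TC and MDA-MB-231 were not.

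Read on the probe set of highest mean, the order of the lines sorted the members into 4 patterns. For 9 members, ITGA1, ITGA5, ITGA6, ITGAV, ITGB1, ITGB2, LAMA4, LAMB2 and LAMB3, ZR-75-1 differed from both other lines and the difference between B6TC and MDA-MB-231 did not pass, which does not show that those lines were equal. This pattern held for 26.4% of all genes. It depended on the fit: with robust regression it held for 3 members in place of 9, and all 3 comparisons were called at 15. The shares of all genes were not counted with that fit. B6TC was above both lines at 2 members, ITGA2 and ITGA10, below both at 4, ITGAE, ITGB4, ITGB5 and LAMA5, and between them at 3, ITGA3, LAMB1 and LAMC1, where the shares of all genes were 16.4%, 11.0% and 21.8%. No member had B6TC alone apart, MDA-MB-231 alone apart or another pattern, as 7.31%, 7.48% and 9.69% of all genes had. The place of ITGB5 and LAMB1 held for that probe set alone, since the other put B6TC between the lines at ITGB5 and above both at LAMB1, and that of ITGA2 held for 1 of its 2 probe sets. Other tested probe sets of ITGA6, ITGB1 and LAMA4 were called between B6TC and MDA-MB-231. The place of LAMA5 rested on a call that was lost without any one array of these lines. That of ITGB4 rested on means below 6 in both of them. At the 7 members where the parental lines were 2 or more log2 units apart, the place of B6TC was expressed on a scale of 0 at the MDA-MB-231 mean and 1 at the ZR-75-1 mean. The median was 0.0246, with a range from -0.175 at ITGB4 to 0.185 at ITGA3, and over all 1344 genes with such a difference it was 0.0116. Over the 14 member probe sets that were so far apart, the range was -0.229 to 0.309, with a median of 0.0216 against 0.0179 over all 2485 such probe sets.

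Of the 34 member genes with a probe set, B6TC had 17 at a mean of 6 or more, MDA-MB-231 had 17 and ZR-75-1 had 10. Of all probe sets, 34.4% to 34.7% were at 6 or more on the arrays of B6TC and MDA-MB-231. On the ZR-75-1 arrays 33.8% to 33.9% were. These shares count every probe set and not the highest of each gene, so they are not a like measure, and none was counted for pairs. Pairs were then read from a list of 24 known alpha and beta pairs, of which 23 could be assessed, without any measurement of protein. Both subunits were at 6 or more for 8 pairs of B6TC, 8 of MDA-MB-231 and 5 of ZR-75-1. The pairs of ITGB1 with ITGA1, ITGA3, ITGA5 and ITGA10 reached it in B6TC and MDA-MB-231 and not in ZR-75-1, where ITGA5 and ITGA3 lay just under it at means of 5.97 and 5.92. The pair of ITGA6 and ITGB4 reached it only in ZR-75-1, with ITGB4 at a mean of 5.86 in MDA-MB-231. The pairs of ITGB1 with ITGA2, ITGA6 and ITGAV, and that of ITGAV with ITGB5, reached it in all 3 lines.

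The other 16 genes stayed below the filter. Their probe sets ranged from 2.53 to 5.73 for ITGA2B, the platelet fibrinogen receptor subunit, and from 2.27 to 5.66 for its partner ITGB3. The ranges were 2.35 to 2.90 for ITGA4, 3.91 to 4.91 for ITGA7, 2.75 to 5.05 for ITGA8, 2.35 to 4.20 for ITGA9 and 2.53 to 5.81 for ITGA11. The leukocyte subunits ranged from 5.12 to 5.27 for ITGAD, 2.34 to 5.04 for ITGAL, 2.92 to 5.77 for ITGAM, 3.94 to 4.81 for ITGAX and 5.51 to 5.84 for ITGB7. LAMA1 ranged from 3.32 to 4.72, LAMA2 from 2.11 to 5.47 and LAMC3 from 4.61 to 5.49. ITGB8, a subunit that pairs with ITGAV to activate TGF-beta, had a ZR-75-1 mean of 2.42, a B6TC mean of 4.29 and an MDA-MB-231 mean of 5.03 on its highest probe set. A level below the filter on an array does not show that a gene was silent.

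Genes that work with integrins and laminins were followed in 4 lists. The focal adhesion list holds adaptors and kinases that link integrins to actin, with 31 of 41 genes tested. In B6TC, 24 of these rose above and 5 fell below ZR-75-1 (median 0.64), against 42.8% and 41.6% of all genes, and 11 were above and 8 below MDA-MB-231 (median 0.05), against 36.5% and 28.5%. The second pair of counts is near those shares and is no result about the list. Against ZR-75-1 the largest called differences were those of TGFB1I1, a paxillin-like adaptor, at 3.31, FERMT1, a kindlin that activates integrins, at 2.31, VCL, the actin linker vinculin, at 2.07, and FERMT3, the kindlin of blood cells, at 1.51. Against MDA-MB-231 they were those of TLN1, at -1.47, FERMT3, at 1.18, ZYX, at -0.98, and TGFB1I1, at 0.69. TLN1 encodes talin, which binds integrin tails, and its other tested probe set was called in the opposite direction, at 0.42. FERMT3 lay at 6.48, 6.82 and 6.41 for B6TC, 5.31, 5.41 and 5.47 for MDA-MB-231 and 4.99, 4.97 and 5.22 for ZR-75-1, so that only the B6TC arrays passed the filter level. It was tested through that line alone, and without the third B6TC array it was not tested. MDA-MB-231 had 23 of these genes higher and 6 lower than ZR-75-1, against 42.5% and 41.9% of all genes. They were led by TGFB1I1 at 2.62, FERMT1 at 2.55, TLN1 at 2.31 and ZYX at 1.63.

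All 8 tested genes of the list of tetraspanins and hemidesmosome proteins but 2 were below MDA-MB-231 in B6TC, with 6 lower, 1 higher and a median of -0.36, where 28.5% of all genes were lower and 36.5% higher. The largest called differences were those of PLEC, the linker plectin, at -0.70, the tetraspanin CD9, at -0.57, DST, which ties hemidesmosomes to keratin, at 0.43, and the tetraspanin CD81, at -0.40. The 7 tested DST probe sets were called higher 4 times and lower once. Against ZR-75-1, 4 of the genes were higher and 2 lower in B6TC, where 42.8% and 41.6% of all genes were. The count of higher genes is near its share and is no result about the list. The largest differences were those of PLEC at 2.04, DST at 1.63, CD9 at -1.56 and CD63 at -0.73. MDA-MB-231 had 6 higher and 2 lower than ZR-75-1, where 42.5% and 41.9% of all genes were, with PLEC at 2.74, DST at 1.21, CD9 at -0.99 and CD82 at 0.55.

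Of the list of basement membrane proteins and other laminin receptors, 11 of 17 genes were tested. Against ZR-75-1, 6 were higher and 5 lower in B6TC (median 0.46), where 42.8% and 41.6% of all genes were, led by NTN4, a netrin that binds laminin chains, at 5.72, the type IV collagen chains COL4A2 and COL4A1, at 4.17 and 3.44, and the syndecan SDC2, at 2.99. Both counts are near their shares and are no result about the list. Against MDA-MB-231, 3 were higher and 5 lower (median -0.16), where 36.5% and 28.5% of all genes were, led by COL18A1 at -1.02, SDC2 at 0.72, AGRN at -0.65 and COL4A5 at 0.58. SDC2 was called on 1 of its 3 tested probe sets. MDA-MB-231 had 6 higher and 4 lower than ZR-75-1, where 42.5% and 41.9% of all genes were. They were led by NTN4 at 5.25, COL4A2 at 4.68, COL4A1 at 3.60 and SDC2 at 2.27. The counts of MDA-MB-231 are again near the shares and are no result about the list. NTN4 lay at 2.44 to 2.90 on the ZR-75-1 arrays, COL4A2 at 3.72 to 4.62 and COL4A1 at 3.81 to 4.29. These levels are well under 6, so that the differences of these genes from that line are lower bounds and have no order.

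Of the other integrin ligands, 16 of 21 genes were tested. Against ZR-75-1, 10 were higher and 5 lower in B6TC (median 0.66), where 42.8% and 41.6% of all genes were, led by the matricellular protein CCN2 at 8.84, EDIL3, an RGD ligand of ITGAV pairs, at 8.60, the ITGAE ligand CDH1 at -7.49 and CCN1 at 5.87. CCN2 lay at 3.10 to 3.55 and EDIL3 at 2.22 to 2.77 on the ZR-75-1 arrays, within the range of the members that reached 6 on no array, so that their differences are lower bounds and have no order. The CDH1 value was -8.69 without the third B6TC array (limma adjusted p = 5.1e-11). Against MDA-MB-231, 7 were higher and 4 lower (median 0.24), where 36.5% and 28.5% of all genes were, led by THBS1 at -1.32, the fibrillin FBN1 at 0.93, MFGE8 at -0.80 and CCN1 at 0.74, the last called on 1 of its 2 tested probe sets. Those counts are near the shares and are no result about the list. MDA-MB-231 had 10 higher and 5 lower than ZR-75-1, where 42.5% and 41.9% of all genes were. They were led by EDIL3 at 9.03, CCN2 at 8.46, CDH1 at -8.45 and NPNT, the ITGA8 ligand nephronectin, at -6.31. The lower line of each was below 4, with the same limit. Over the named genes of the 4 lists the limma adjusted p lay between 1.3e-13 and 0.00391.

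**Figure D4:**
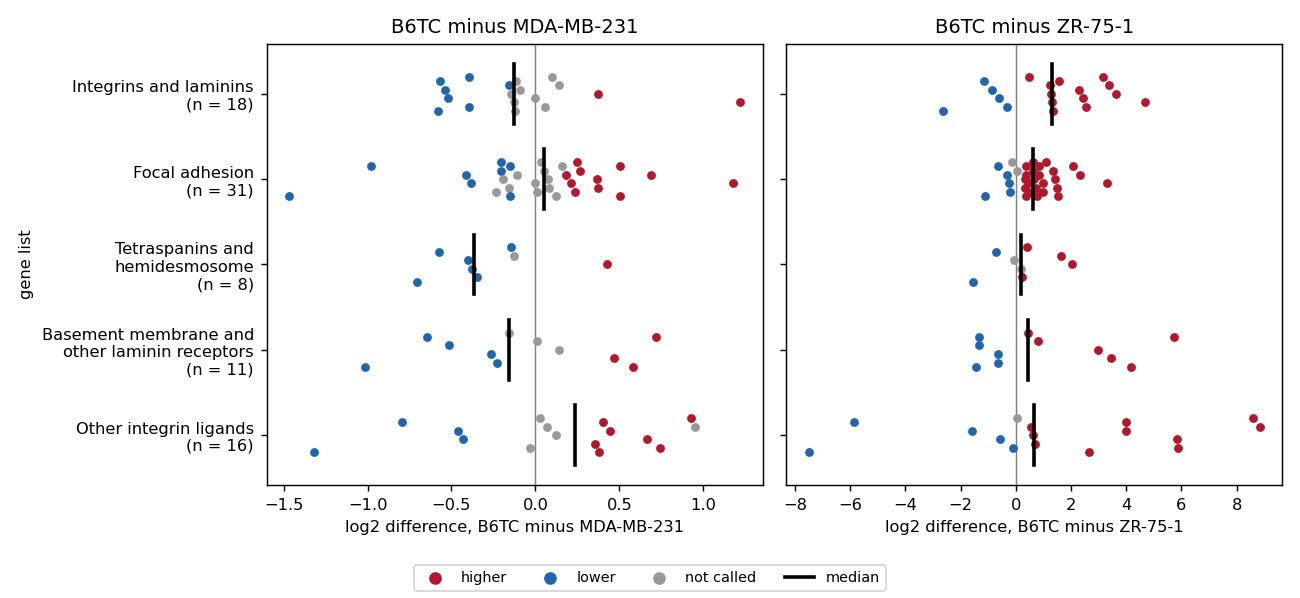
Log2 difference of B6TC from MDA-MB-231 (left) and from ZR-75-1 (right) on the x axes for the tested integrin and laminin genes and for the 4 lists of genes that work with them (y axis). Each point is 1 gene, colors give the call at an adjusted p of 0.05, and black lines are list medians. The members have a median of -0.13 on the left and of 1.32 on the right, and the x axes of the panels differ in range.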

How the data were processed

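The arrays were read from 1 table of the whole series. It holds deposited log2 expression values, which the authors computed by RMA in Affymetrix Expression Console according to the submitters' processing notes. The methods name GC-RMA instead, and neither the background correction nor the normalization could be repeated from the values. The number of arrays limits the precision. Symbols came from the platform annotation and were updated through gene identifiers to GRCh38.p14. Probe sets at 6 or more on at least 3 of 9 arrays entered 1 linear model with a mean for each line (limma 3.58.1, R 4.3.3), and p-values were adjusted by Benjamini and Hochberg over all 21095 probe sets within each comparison. A gene was read by its probe set of highest mean. The fit was tested on simulated data. Every tested member is named, as are the 4 genes of largest called difference of each partner list and comparison. The members and lists were chosen with earlier results of these data known. The replicate numbers did not pair the arrays: correlations of same-numbered arrays lay between -0.102 and 0.176. Alternatives were other filters, fits, normalizations and probe set rules, and leaving out each array. Promoter windows are from RefSeq.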

Additional observations from a re-analysis of the deposited data

How the results depend on the processing

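Leaving out 1 array at a time gave 2 members higher and 6 to 8 lower for B6TC against MDA-MB-231, 13 and 5 against ZR-75-1, and 14 and 4 for MDA-MB-231 against ZR-75-1, and ZR-75-1 alone stood apart at 8 to 10 members. Besides LAMA5, calls between B6TC and MDA-MB-231 changed at LAMB2, which passed at -0.18 without the third MDA-MB-231 array (limma adjusted p = 0.0369), and at ITGA5, which passed at -0.13 without the third ZR-75-1 array (limma adjusted p = 0.0493). With the replicate block the counts were 2 and 6, 13 and 5, and 14 and 4, and LAMA5 between B6TC and MDA-MB-231 no longer passed (limma adjusted p = 0.0675), which was the sole member call that the block changed. Without a filter, 34 members were tested, and 15 were above and 8 in place of 5 below ZR-75-1 in B6TC. The shares of all genes were not counted in that setting. Robust regression gave 4 higher and 11 lower for B6TC against MDA-MB-231, and the shares of all genes were not counted with it. All 3 comparisons were then called at 15 members in place of 9, and ZR-75-1 alone stood apart at 3 in place of 9. The cause was not tested. The paper's methods name a robust form of the moderated t statistic, which may be nearer to this fit than to the main one.

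Without probe sets that may bind several transcripts, only 12 members were tested, with 3 lower for B6TC against MDA-MB-231, 2 lower against ZR-75-1 and 1 lower for MDA-MB-231 against ZR-75-1. The lists then had, for B6TC against MDA-MB-231, 4 tetraspanin and hemidesmosome genes, 5 basement membrane genes and 5 other ligands called, 7 and 7 of the last pair against ZR-75-1, and 5 tetraspanin and hemidesmosome genes and 7 other ligands for MDA-MB-231 against ZR-75-1, since fewer genes were tested. The probe set of highest variance gave 4 members higher for B6TC against MDA-MB-231, and requiring all probe sets of a gene to be called the same way, which was chosen after seeing the data, gave 1. With either of the first alternatives ITGB1 turned to -0.64 and LAMB1 to 1.07 between these lines, and the mean of the probe sets gave -0.14 and 0.34, with ZR-75-1 alone apart at 5 members and 19 focal adhesion genes called between MDA-MB-231 and ZR-75-1.

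A fold minimum of 2 left, for B6TC against MDA-MB-231, 1 member higher and 0 lower and 2 focal adhesion, 0 tetraspanin and hemidesmosome, 1 basement membrane and 1 other ligand gene. It left 2 members lower and 9, 3 and 7 genes of the first 3 lists against ZR-75-1. For MDA-MB-231 against ZR-75-1 it left 1 member lower and 10, 2 and 6 genes, and all 3 comparisons passed at 1 member. The limits are those of 3 technical arrays per line and of values near the filter level.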
